A study of Mus musculus with 3 samples.

Results

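The enzymes that break glucose down to pyruvate and lactate, the pyruvate dehydrogenase complex with the kinases that switch it off, the enzymes that make and use fructose 2,6-bisphosphate, fructose bisphosphatase, and the enzymes of the pentose phosphate pathway were followed across 3 cultures of mouse pluripotent stem cells. The set was a fixed list of 34 genes found by symbol in the platform annotation, with the brightest probe set of 1 symbol standing for a gene. Of these, 29 were measured among 22180 genes on the array. Aldoa and Tkt were represented only by probe sets that name several genes, and for Gpi1, Eno1 and G6pdx no probe set carried the symbol, so no level is given for these 5.

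Glycolysis turns glucose into pyruvate in the cytosol. Pyruvate is then reduced to lactate by lactate dehydrogenase or enters the mitochondrion, where the pyruvate dehydrogenase complex makes acetyl-CoA. Many steps are served by several isozymes from separate genes, which differ in kinetics, control and tissue distribution. The pentose phosphate pathway branches off at glucose 6-phosphate and supplies NADPH and ribose. Naive mouse embryonic stem cells are known to use both glycolysis and respiration, while primed epiblast stem cells are known to rely mostly on glycolysis.

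All 3 cultures came from EB3, an established line of mouse embryonic stem cells (mESCs), and shared N2B27 as their medium. The Activin+PD culture was EB3 mESCs in Activin A (20 ng/ml), a TGF-beta family ligand, plus the MEK inhibitor PD0325901 (2 µM), held there for 64 days. The 2i culture was EB3 mESCs held for 34 days in the same dose of PD0325901 plus the GSK3 inhibitor CHIR99021 (2 µM). The mouse epiblast stem cells (mEpiSCs) were made from EB3 mESCs by induction and kept in Activin A (20 ng/ml) plus bFGF (12 ng/ml); the sources used here do not state how long. Each culture was measured on 1 Affymetrix array. Without replicates no difference could be tested, and "higher" and "lower" refer to these 3 arrays of 1 cell line.

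Background, the 95th percentile of olfactory and vomeronasal receptor probe sets, lay at 45.4 (Activin+PD), 48.2 (2i) and 47.6 (mEpiSC) in intensity units. The labelled cell states were checked on marker genes. Of 11 naive markers, 9 were at least 2-fold lower in mEpiSCs than in 2i and 0 were 2-fold apart between Activin+PD and 2i. Of 8 primed markers, 6 were at least 2-fold higher in mEpiSCs than in 2i. Activin+PD exceeded 2i by 2-fold or more for 2 of the 8, Otx2 (by at least 2.22 on the log2 scale) and Fgf5 (1.48). Of the 7 above background on either of these arrays, 5 were higher in Activin+PD and 2 lower, with Dnmt3b the lowest at -0.60. Among 9 fibroblast markers, which would show feeder cells, 6 were above background on each array, their summed intensity lay between 558 and 727 with the highest sum in mEpiSCs, and Postn, Lum and Dcn were below background on every array. The part of other cells in the results was not tested. Because the arrays measure a culture as a whole, fewer cells that hold a transcript and less of it per cell cannot be told apart. A probe set spread was taken from genes with at least 2 probe sets above background on both arrays compared. It is the standard deviation of the disagreement in log2 difference between the 2 brightest of these, divided by the square root of 2. The spread was 0.24 between Activin+PD and 2i, 0.33 between mEpiSC and 2i, and 0.30 between mEpiSC and Activin+PD. That spread covers probe set error and not variation between cultures.

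The list as a whole had no common direction, and single isozymes stood far from the rest. Between Activin+PD and 2i, 0 of 29 measured enzymes were 2-fold apart, beside 2.19% of 14059 genes compared. Between mEpiSCs and 2i, 1 of 29 was at least 2-fold higher, beside 4.53% of 14202 genes, and 5 were at least 2-fold lower, beside 4.96%. Between mEpiSCs and Activin+PD, 2 were at least 2-fold higher, beside 3.58% of 14397 genes, and 5 were lower, beside 5.37%. The median log2 difference of the 29 enzymes was 0.03, -0.01 and 0.07 in these comparisons in turn, beside -0.01, 0.03 and 0.04 over all genes compared. At a lower bar of 1.5-fold, 2 enzymes were higher and 2 lower in Activin+PD than in 2i, beside 4.53% and 2.55% of all genes. In mEpiSCs 3 were at least 1.5-fold higher and 5 lower than in 2i, beside 9.51% and 10.2%, and 4 were higher and 7 lower than in Activin+PD, beside 8.72% and 10.9%. Both comparisons with mEpiSCs use the same mEpiSC array, and each culture enters 2 of the 3 comparisons. All 29 were above background on both mESC arrays and 27 on the mEpiSC array, where Fbp1 and Pdk4 were not. For these genes a difference is given as "at least", measured to the background of the dimmer array.

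**Figure D1:**
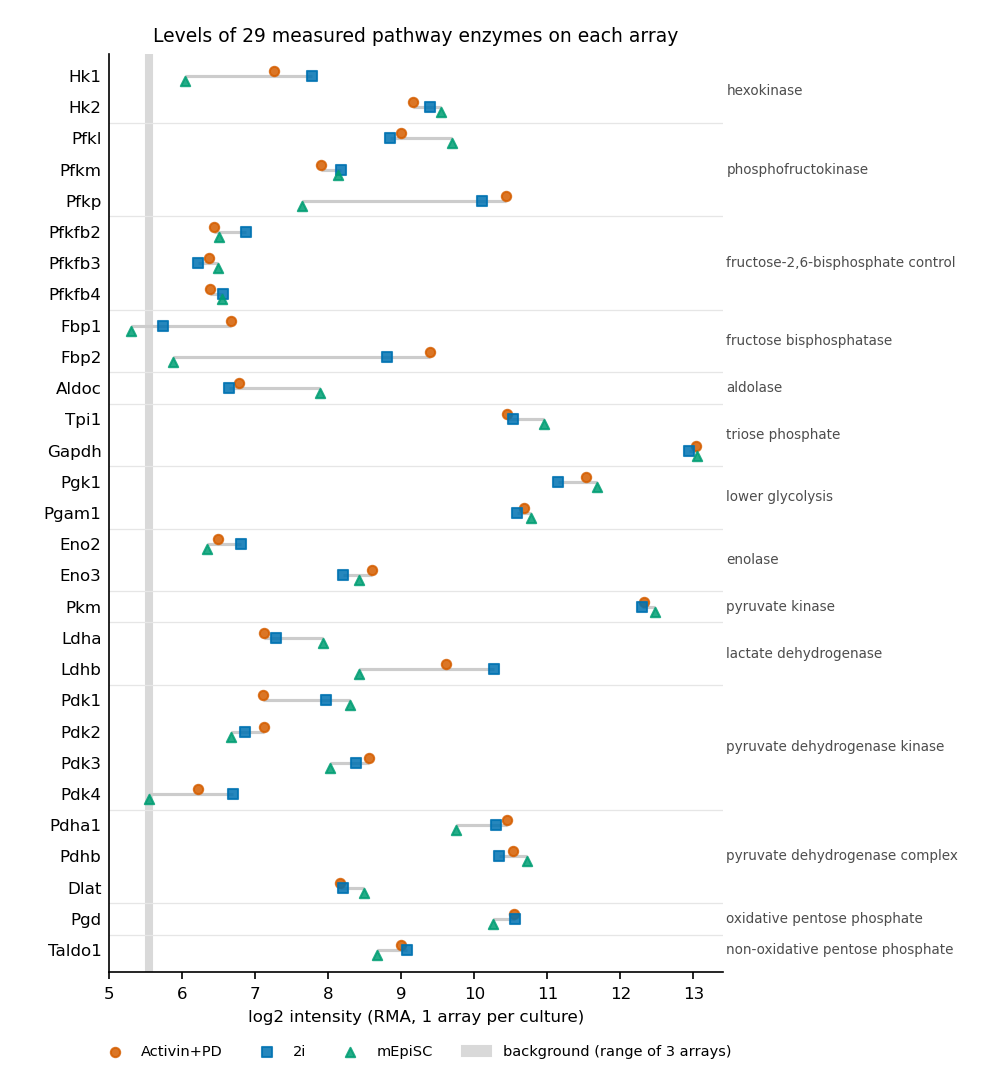
Each row is 1 of the 29 measured enzymes, grouped by step, and the x axis is its log2 intensity on the Activin+PD (circle), 2i (square) and mEpiSC (triangle) arrays, 1 array per culture, with the grey band marking the background of the 3 arrays. The widest rows are Fbp2, Pfkp, Ldhb and Hk1, each with mEpiSC as the lowest point, and levels of different genes are not comparable with each other.

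**Figure D2:**
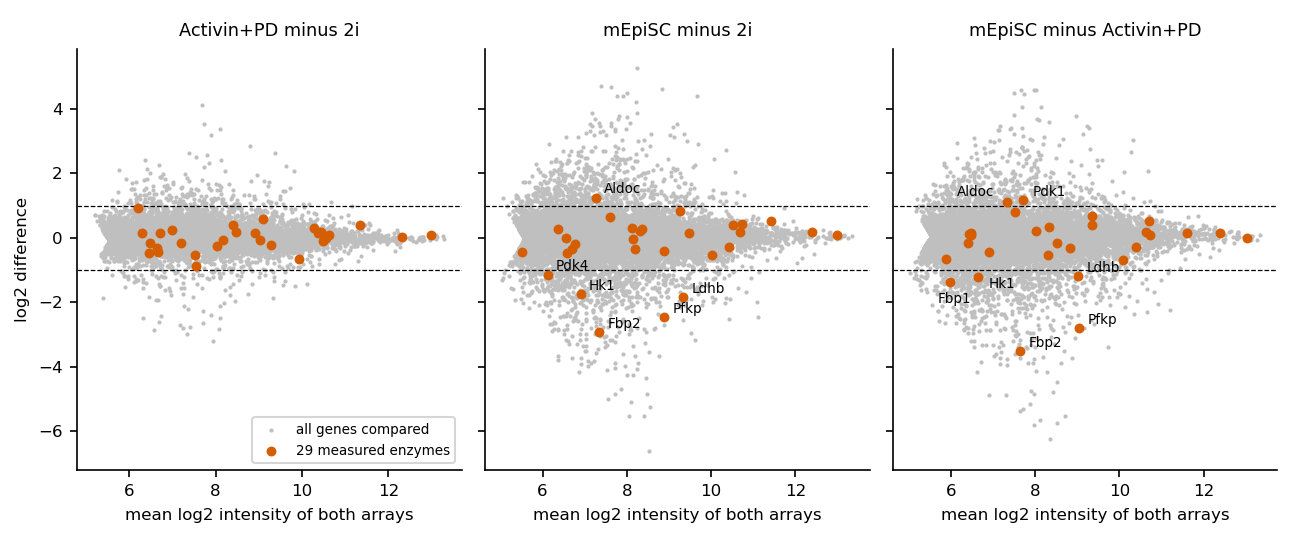
Each panel plots the log2 difference between a pair of arrays (y axis) against the mean log2 intensity of both (x axis) for all genes compared (grey) and for the 29 measured enzymes (orange), with dashed lines at 2-fold and names for enzymes past them. No enzyme passes 2-fold between Activin+PD and 2i, while Fbp2 and Pfkp lie well below the bulk of genes in both panels with mEpiSCs.

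For 3 enzymes lower in mEpiSCs than in 2i (Pfkp, Ldhb and Fbp2) and 3 higher (Pfkl, Ldha and Aldoc), chosen after their values were seen, the sequence just before the start of the gene is shown, so that members with opposite directions can be compared there. The 250 bases before the RefSeq start (GRCm38.p6) were searched on both strands for ACGTG and GCGTG, the core of sites bound by hypoxia-inducible factors, for CACGTG, the E-box bound by MYC and related factors, and for AAGGTCA, a site bound by ESRRB. CACGTG contains ACGTG on both strands. Where RefSeq lists several starts for a gene, the first listed is shown. Capitals mark matches, each sequence is written 5′ to 3′ on the gene's own strand, and a match is not evidence of binding.
Pfkp: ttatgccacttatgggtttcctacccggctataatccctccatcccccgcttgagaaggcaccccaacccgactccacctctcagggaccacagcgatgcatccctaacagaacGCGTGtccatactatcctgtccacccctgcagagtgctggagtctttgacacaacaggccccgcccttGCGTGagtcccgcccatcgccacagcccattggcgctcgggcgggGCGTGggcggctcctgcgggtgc
Pfkl: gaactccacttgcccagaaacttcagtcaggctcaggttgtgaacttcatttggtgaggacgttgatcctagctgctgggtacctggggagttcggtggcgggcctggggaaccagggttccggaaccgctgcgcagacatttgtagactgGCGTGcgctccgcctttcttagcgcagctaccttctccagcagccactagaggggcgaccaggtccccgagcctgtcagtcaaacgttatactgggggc
Ldhb: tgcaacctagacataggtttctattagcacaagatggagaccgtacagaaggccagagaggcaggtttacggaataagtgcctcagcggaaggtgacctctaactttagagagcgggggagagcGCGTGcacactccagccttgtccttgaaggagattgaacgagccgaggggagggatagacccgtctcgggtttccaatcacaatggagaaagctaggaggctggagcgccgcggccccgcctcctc
Ldha: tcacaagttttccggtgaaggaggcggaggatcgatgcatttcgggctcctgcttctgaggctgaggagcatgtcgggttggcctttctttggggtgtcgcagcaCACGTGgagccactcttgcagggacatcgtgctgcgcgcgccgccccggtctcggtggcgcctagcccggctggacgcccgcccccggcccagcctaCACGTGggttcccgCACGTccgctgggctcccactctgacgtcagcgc
Fbp2: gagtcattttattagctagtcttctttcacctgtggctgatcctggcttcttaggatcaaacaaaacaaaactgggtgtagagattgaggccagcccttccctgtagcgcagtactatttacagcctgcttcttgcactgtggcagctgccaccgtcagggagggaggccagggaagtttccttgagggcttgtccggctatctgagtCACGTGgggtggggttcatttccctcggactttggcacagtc
Aldoc: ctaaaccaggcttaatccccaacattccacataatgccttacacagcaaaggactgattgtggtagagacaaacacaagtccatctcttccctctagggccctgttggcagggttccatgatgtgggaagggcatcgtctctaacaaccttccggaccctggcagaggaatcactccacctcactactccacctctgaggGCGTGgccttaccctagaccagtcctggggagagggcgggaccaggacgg

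The windows lie at chr13:6648772-6649021 (minus strand) for Pfkp, chr10:78009808-78010057 (minus) for Pfkl, chr6:142507958-142508207 (minus) for Ldhb, chr7:46845554-46845803 (plus) for Ldha, chr13:62858401-62858650 (minus) for Fbp2 and chr11:78322823-78323072 (plus) for Aldoc. The Ldha window held 2 E-boxes, which begin 145 and 48 bases before the start, and 1 further ACGTG on the other strand at 34 bases. Fbp2, lower in mEpiSCs, also held an E-box, at 42 bases. GCGTG was found 3 times before Pfkp and 1 time each before Pfkl, Ldhb and Aldoc, so genes higher and lower in mEpiSCs both held it. Of the hexokinases, not shown, Hk1 held 0 matches before its first listed start and 3 of GCGTG before its other start, and Hk2 held 2 of ACGTG. Over the 51 windows of all 34 listed genes, 39 (76.5%) held ACGTG or GCGTG, beside 38.6% of 32851 promoter windows in the table. CACGTG was in 6 (11.8%), beside 6.02%, and AAGGTCA in 1 (1.96%), beside 4.08%. The listed genes' windows were richer in G and C, with a median of 59.2% beside 52.4%, and 3 of the motifs contain CG; the part of base composition was not tested, and windows of the same gene overlap.

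Glucose is phosphorylated by hexokinase. Of the listed isozymes, Hk1 was at least 2-fold lower in mEpiSCs than in both mESC cultures, while Hk2 stayed within 1.5-fold throughout. Hk1, which encodes the hexokinase found in most tissues, had an intensity of 153 in Activin+PD, 219 in 2i and 65.6 in mEpiSCs. It was highest in 2i and lowest in mEpiSCs, where it was 3.34-fold lower than in 2i (log2 difference -1.74) and 2.33-fold lower than in Activin+PD (-1.22). Hk2, the inducible isozyme of proliferating cells, stood at 572, 672 and 748 in the same order. Its log2 difference from 2i was -0.23 in Activin+PD and 0.15 in mEpiSCs, both within the probe set spread. Between mEpiSCs and Activin+PD the difference of Hk2 was 0.39, past the spread of 0.30 but within 1.5-fold.

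Phosphofructokinase commits sugar to glycolysis, and its isozymes diverged in mEpiSCs. Pfkp, the platelet isozyme, had an intensity of 1382 in Activin+PD, 1106 in 2i and 200.4 in mEpiSCs. Both mESC cultures were high and mEpiSCs were low, 5.52-fold below 2i (-2.46) and 6.90-fold below Activin+PD (-2.79). Of all genes compared, 0.817% were at least as far below 2i in mEpiSCs. Pfkl, the liver isozyme, went the other way, with 513 in Activin+PD, 460 in 2i and 826 in mEpiSCs. Its level in mEpiSCs was 1.80-fold that in 2i (0.85), short of 2-fold. Pfkm, the muscle isozyme, stood at 240, 288 and 280, and its mEpiSC level differed from 2i by -0.04. A single step thus had 1 isozyme lower, 1 higher and 1 at a similar level in mEpiSCs.

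The Pfkfb genes encode bifunctional enzymes that make and break down fructose 2,6-bisphosphate, the main activator of phosphofructokinase. All 3 measured members were dim, between 74.5 and 117 on every array. Pfkfb2 stood at 86.7 in Activin+PD, 117 in 2i and 91.3 in mEpiSCs, so it was highest in 2i. Pfkfb3 stood at 83.0, 74.5 and 90.2, and Pfkfb4 at 83.8, 94.1 and 93.5. None was 1.5-fold apart in any of the 3 comparisons, with log2 differences between -0.43 and 0.28.

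Fructose bisphosphatase removes the phosphate that phosphofructokinase adds and belongs to gluconeogenesis. Fbp2, the muscle isozyme, had the largest difference of all measured members. Its intensity was 672 in Activin+PD, 446 in 2i and 59.0 in mEpiSCs, where it lay just above background. The mESC cultures were far above mEpiSCs, with a 7.56-fold difference from 2i (-2.92) and an 11.4-fold difference from Activin+PD (-3.51). Of all genes compared, 0.472% were at least as far below 2i and 0.236% at least as far below Activin+PD. Fbp1, the liver isozyme, whose gene neighbours Fbp2 on chromosome 13 in RefSeq, stood at 102 in Activin+PD and 53.7 in 2i and was not above background in mEpiSCs at 39.4. It was at least 2.14-fold lower in mEpiSCs than in Activin+PD (by at least 1.10), and at least 1.13-fold lower than in 2i. In Activin+PD, Fbp1 was 1.90-fold (0.92) and Fbp2 1.51-fold (0.59) above 2i. These were the 2 enzymes at least 1.5-fold higher in that comparison. For both genes the order was Activin+PD, 2i, mEpiSC.

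**Figure D3:**
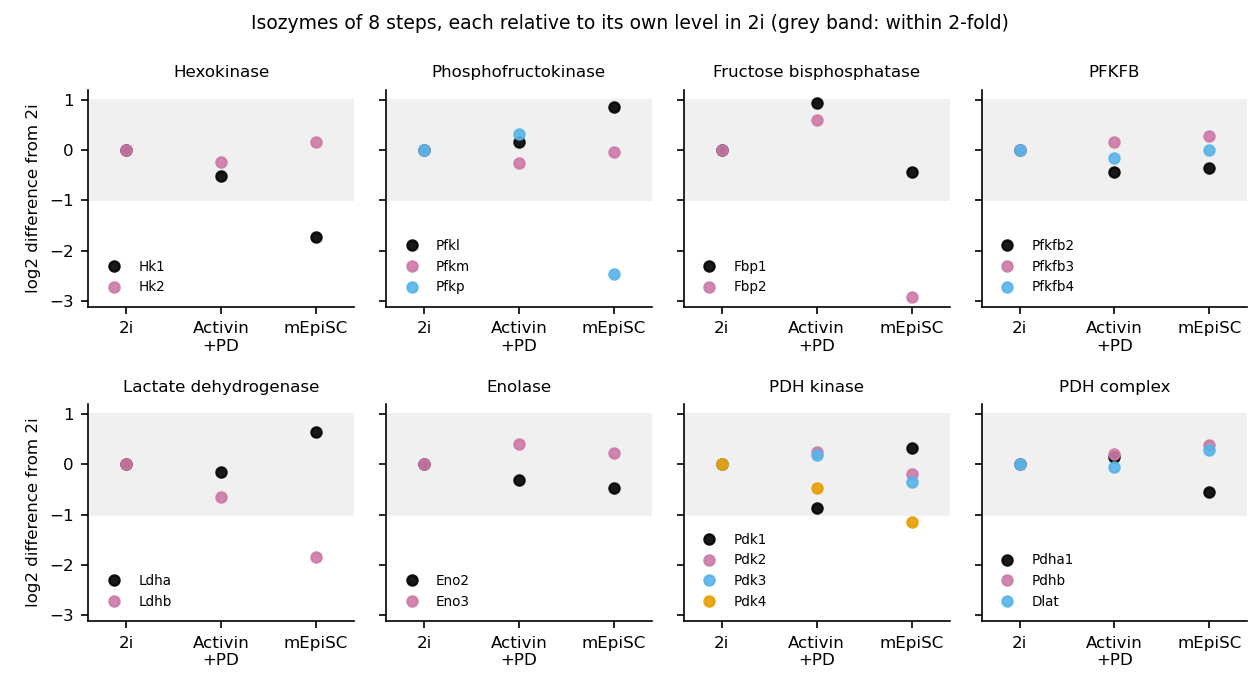
Each panel is an isozyme family or complex, and points give the log2 difference of a gene from its own level in 2i, on 1 array each of 2i (at 0 by construction), Activin+PD and mEpiSC; the grey band marks differences within 2-fold. In mEpiSCs, Pfkl and Ldha lie above 0, while Pfkp, Ldhb and Hk1 lie below the band. Hk2 (0.15) and Pfkm (-0.04) lie within the probe set spread of 0.33 there. All Activin+PD points stay inside the band, and the mEpiSC points of Fbp1 and Pdk4 are measured values below background.

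Aldolase splits fructose 1,6-bisphosphate. Aldoc, the isozyme best known from brain, stood at 110 in Activin+PD, 99.8 in 2i and 237 in mEpiSCs. Both mESC cultures were alike and mEpiSCs were higher, 2.38-fold above 2i (1.25) and 2.15-fold above Activin+PD (1.11). It was the 1 measured enzyme at least 2-fold higher in mEpiSCs than in 2i.

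From triose phosphate to pyruvate, levels of these single main enzymes were within 1.5-fold in all 3 comparisons on the probe sets used. Tpi1, which interconverts the triose phosphates, stood at 1391 in Activin+PD, 1473 in 2i and 1993 in mEpiSCs, and its mEpiSC level was 1.35-fold that in 2i (0.44). Gapdh, which oxidises glyceraldehyde 3-phosphate, stood at 8395, 7873 and 8443. Its log2 difference from 2i was 0.09 in Activin+PD and 0.10 in mEpiSCs. The other 2 probe sets of Gapdh differed from 2i in mEpiSCs by 0.08 and 0.38, and since near-identical copies of this gene exist, its probe sets may pick up more than 1 transcript. Pgk1, an ATP-making kinase, stood at 2963 in Activin+PD, 2269 in 2i and 3281 in mEpiSCs, so 2i was the lowest, with differences of 0.39 and 0.53. Pgam1, the phosphoglycerate mutase, stood at 1640, 1539 and 1753, and its other probe set gave 0.18 and 0.08 in place of 0.09 and 0.19. Pkm, the pyruvate kinase of most proliferating cells, stood at 5132, 5031 and 5670 and differed by 0.03 and 0.17. A gene-level probe set does not separate the M1 and M2 splice forms of Pkm.

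The enolases make phosphoenolpyruvate. Eno3, known as the muscle isozyme, stood at 388 in Activin+PD, 295 in 2i and 344 in mEpiSCs. Eno2, known as the neuronal isozyme, stood at 89.7, 112 and 81.1. Relative to 2i, Eno3 was higher by 0.40 and 0.22 and Eno2 was at -0.32 and -0.46. They thus differed in sign in both cultures, each within 2-fold. The mEpiSC difference of Eno3 lay within the probe set spread of 0.33.

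Lactate dehydrogenase genes also parted in mEpiSCs. Ldhb, whose subunit is typical of tissues that take up lactate, had an intensity of 782 in Activin+PD, 1231 in 2i and 342 in mEpiSCs. The cultures were in steps, with 2i highest, Activin+PD 1.57-fold lower (-0.65) and mEpiSCs 3.59-fold lower (-1.85). Ldha, whose subunit is typical of tissues that make lactate, stood at 140, 156 and 243. Its mEpiSC level was 1.56-fold that in 2i (0.64) and 1.74-fold that in Activin+PD (0.80), and both mESC cultures were close, at a log2 difference of -0.16. The windows before the first listed start of each gene are shown above, with 1 match for Ldhb, and 2 E-boxes and 1 further ACGTG for Ldha. The window before the second start of Ldha held 1 GCGTG and 0 E-boxes. Any part of these matches in the levels was not tested.

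Pyruvate dehydrogenase kinases phosphorylate and shut the pyruvate dehydrogenase complex. Pdk1 stood at 138 in Activin+PD, 251 in 2i and 314 in mEpiSCs. Activin+PD was the low culture, 1.82-fold below 2i (-0.86), and mEpiSCs were 2.27-fold above Activin+PD (1.19). Of all genes compared, 1.17% were at least as far below 2i in Activin+PD. A second probe set of Pdk1 read 21.1, 21.6 and 22.2, below background on every array, and averaging both would take the difference between mEpiSCs and Activin+PD to 0.63. Pdk4, induced by fasting and by nuclear receptors in muscle and liver, stood at 74.7, 103 and 46.9, the last not above background. It was at least 2.17-fold lower in mEpiSCs than in 2i (by at least 1.12), a measured difference of -1.14 that became -0.92 with 16 added to each intensity, and 1.39-fold lower in Activin+PD than in 2i (-0.47). Pdk2 stood at 139, 117 and 102 and Pdk3 at 378, 333 and 260.2, both with the order Activin+PD, 2i, mEpiSC and within 1.5-fold throughout. In mEpiSCs, Pdk1 was thus the 1 kinase above its 2i level, by 0.32, which is within the probe set spread of 0.33.

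Subunits of the pyruvate dehydrogenase complex stayed within 2-fold in all 3 comparisons. Pdha1, the X-linked catalytic alpha subunit that the kinases phosphorylate, stood at 1390 in Activin+PD, 1259 in 2i and 863 in mEpiSCs, so mEpiSCs were 1.46-fold below 2i (-0.55). Pdhb, its beta partner, stood at 1477, 1290.2 and 1685, with mEpiSCs above 2i by 0.39. Dlat, the acetyltransferase core, stood at 285, 296 and 361, with mEpiSCs above 2i by 0.29. The alpha subunit therefore had the opposite sign to the other 2 in mEpiSCs. The mEpiSC difference of Dlat lay within the probe set spread of 0.33.

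The 2 measured members of the pentose phosphate pathway, Pgd and Taldo1, were lowest in mEpiSCs. Pgd, which makes NADPH in the oxidative branch, stood at 1497 in Activin+PD, 1510.0 in 2i and 1229 in mEpiSCs. Taldo1, the transaldolase of the non-oxidative branch, stood at 512, 540.2 and 408. Their mEpiSC levels differed from 2i by -0.30 and -0.40, and their Activin+PD levels by -0.01 and -0.08. The mEpiSC difference of Pgd lay within the probe set spread of 0.33. Of 8 further pentose phosphate genes compared, 5 were above 2i in mEpiSCs and 3 below, beside 7645 and 6550 of 14202 genes.

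Over the 29 measured enzymes, 6 had the order Activin+PD, 2i, mEpiSC from high to low (Pfkp, Fbp1, Fbp2, Pdk2, Pdk3 and Pdha1) and 6 the order 2i, Activin+PD, mEpiSC (Hk1, Eno2, Ldhb, Pdk4, Pgd and Taldo1). The mEpiSC array was the highest for 13, which include Tpi1, Gapdh, Pgk1, Pgam1 and Pkm of the trunk of glycolysis. The shares of all genes with these orders, or with mEpiSC highest, were not counted. Taken in pairs, 14 of 29 enzymes were above 2i in mEpiSCs, beside 7645 of 14202 genes compared. Above Activin+PD there were 16 of 29, beside 7895 of 14397. The lead over Activin+PD was 0.01 for Gapdh, 0.10 for Pgam1, 0.14 for Pkm and 0.15 for Pgk1, all inside the spread of 0.30. For Tpi1 the lead was 0.52. The leads of Gapdh and Pgam1 changed sign under some other settings of the processing. Some of these orders rest on differences inside the probe set spread. Against that spread, 16 of 29 enzymes lay within it between Activin+PD and 2i, 12 between mEpiSCs and 2i and 12 between mEpiSCs and Activin+PD. Over all genes compared, the median size of the difference was 0.15, 0.24 and 0.25 in turn. These medians are below the spreads of 0.24, 0.33 and 0.30, so most genes compared lay within the spread. For the 29 enzymes the median size was 0.20, 0.39 and 0.39 in turn, above the spread in both comparisons with mEpiSCs.

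Transporters, side branches and regulators around the pathway were taken from a list of 89 further genes, of which 80 were measured and 68 were above background in each comparison. In Activin+PD 5 were at least 2-fold above 2i (1.37% of all genes) and 0 at least 2-fold below (0.818%). In mEpiSCs 4 were at least 2-fold above 2i and 4 below (4.53% and 4.96%), and 3 were above Activin+PD and 7 below (3.58% and 5.37%). Their median log2 difference was 0.09, 0.02 and -0.05 in these comparisons.

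Among transporters, Slc16a3, the lactate exporter MCT4, had an intensity of 405 in Activin+PD, 127 in 2i and 848 in mEpiSCs, so both cultures with Activin A were above 2i. The 2i culture was also the only one with CHIR99021, so presence of Activin A and absence of CHIR99021 cannot be told apart. Slc16a1, the related carrier MCT1, stood at 915, 1046 and 1498, within 2-fold. Slc2a3, the glucose transporter GLUT3, stood at 3344 in Activin+PD, 3228 in 2i and 1561 in mEpiSCs, 2.07-fold below 2i (-1.05). Slc2a1, the transporter GLUT1, stood at 3160, 2421 and 2538. Mpc1, a subunit of the mitochondrial pyruvate carrier, stood at 783, 497 and 308 and was 2.55-fold lower in mEpiSCs than in Activin+PD (-1.35), while its second probe set gave -0.43 and the mean of both -0.89.

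Of the side branches, Gfpt2, which feeds the hexosamine pathway, stood at 1087 in Activin+PD, 470.3 in 2i and 493 in mEpiSCs, so Activin+PD alone was high. Gbe1, the glycogen branching enzyme, stood at 82.4, 69.6 and 198, with mEpiSCs 2.85-fold above 2i (1.51). Galm, which interconverts the anomers of aldose sugars, stood at 184, 159 and 65.2, with mEpiSCs 2.44-fold below 2i (-1.29). Pcx, which carboxylates pyruvate to oxaloacetate, stood at 218, 164 and 107 and was 2.04-fold lower in mEpiSCs than in Activin+PD (-1.03), a difference that became -0.98 after repeated quantile normalisation. None of the 8 further pentose phosphate genes above background was 2-fold apart in any comparison.

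Some regulators differed between the cultures. Myc, a transcription factor that activates many glycolytic genes, stood at 247 in Activin+PD, 213 in 2i and 932 in mEpiSCs, 4.38-fold above 2i (2.13). Hif1a, the hypoxia-inducible factor 1 alpha gene, stood at 759, 616 and 913, within 1.5-fold of 2i in both cultures. Epas1, which encodes the related HIF-2 alpha, stood at 256 in Activin+PD, 126 in 2i and 60.0 in mEpiSCs, so it was 2.04-fold above 2i in one culture (1.03) and 2.10-fold below in the other (-1.07); with 16 added to each intensity these became 0.94 and -0.90. Egln3, a HIF prolyl hydroxylase that is itself hypoxia-responsive, stood at 119 in Activin+PD and 133 in mEpiSCs and was not above background in 2i, at least 2.47-fold and 2.75-fold lower there.

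Hypoxia-responsive genes gave no common direction. Vegfa, a vascular growth factor, stood at 394 in Activin+PD, 134 in 2i and 211 in mEpiSCs, 2.93-fold above 2i in Activin+PD (1.55). Kdm3a, a histone demethylase, stood at 975, 1076 and 418, 2.58-fold lower in mEpiSCs than in 2i (-1.36). The other 7 compared genes of that list were within 2-fold in all 3 comparisons.

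**Figure D4:**
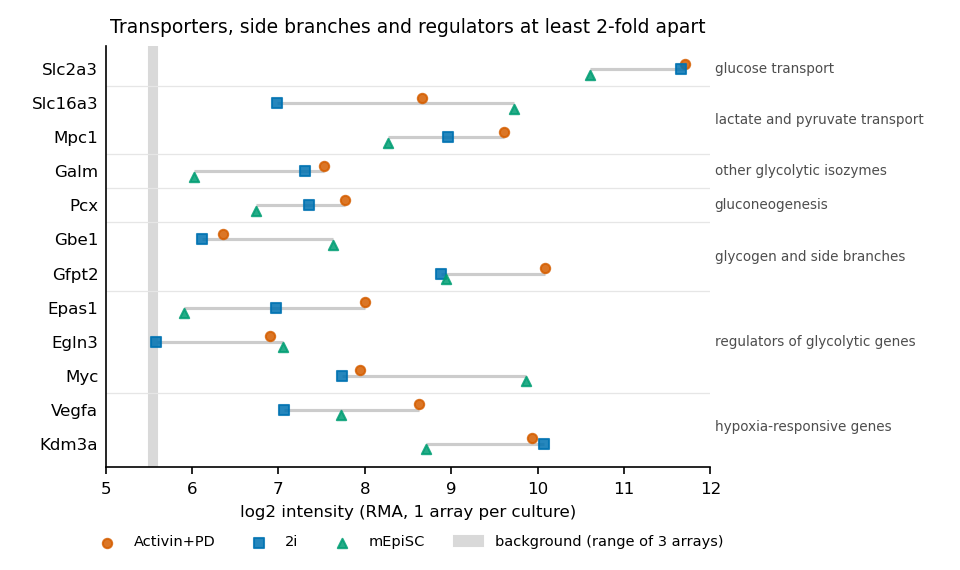
Each row is 1 of the 12 listed transporter, side-branch and regulator genes at least 2-fold apart in any comparison, with its log2 intensity on the x axis for Activin+PD (circle), 2i (square) and mEpiSC (triangle), 1 array each, and the grey band marking background. For Slc16a3 and Egln3 the 2i point is the low one, for Gbe1 and Myc the mEpiSC point is the high one, and for Epas1 the points run from Activin+PD down to mEpiSC.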

How the data were processed

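Affymetrix Mouse Gene 2.0 ST arrays measured total RNA of 3 cultures, per the series' design text, which names GeneSpring GX 11.5. The deposited intensity values were normalised with RMA, per the submitters' processing notes, and their range shows a linear scale. RMA with quantile normalisation makes arrays alike in distribution, so differences in total RNA per cell are not visible. The sources do not state whether a constant was added.

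Log2 of each intensity was taken. Of 33793 probe sets, 23521 had 1 symbol, 1814 several and 8458 none. For 23328 of those with 1 symbol, the symbol was taken from RefSeq through the Entrez identifier, whether or not it changed. Keeping 1 probe set per gene left 22180 genes, and the brightest stood for the 1082 genes with several. Background came from 1400 receptor probe sets. A gene was compared where either array was above background and called where it was at least 2-fold apart. The number of arrays, 1 per culture, limits the precision, and nothing was tested. All 34 members were named, and other listed genes where 2-fold apart; Slc16a1, Slc2a1 and Hif1a, not 2-fold apart, were added after their values were seen. Members and lists were chosen with earlier results of these data known. Promoter sequences are RefSeq's (GRCm38.p6), matched by symbol for 34 of 34. Counting was tested on simulated data. Python 3.11.15, pandas 2.3.3 and statsmodels 0.14.6 were used.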

Additional observations from a re-analysis of the deposited data

How the results depend on the processing

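Results on the 29 enzymes, the counts over all genes and, chosen after seeing the data, those on the other listed genes were recomputed with probe sets averaged, probe sets of several symbols allowed, background at the 99th percentile, no filter, values below background raised to it, 16 subtracted from or added to each intensity, median centring, repeated quantile normalisation and a lowess trend removed. Marker and motif counts were not recomputed. The median of the enzymes ranged from 0.01 to 0.06 between Activin+PD and 2i, from -0.03 to 0.06 between mEpiSCs and 2i, and from 0.01 to 0.09 between mEpiSCs and Activin+PD, so its sign is not settled in the second. No enzyme past 2-fold changed sign, nor did any 2-fold difference of the 12 other genes named for one. Averaged probe sets took Mpc1 to -0.89 between mEpiSCs and Activin+PD. Adding 16 took Epas1 to 0.94 and -0.90 in Activin+PD and mEpiSCs against 2i, and Pcx to -0.93 between mEpiSCs and Activin+PD, which was -0.98 after repeated quantile normalisation. With 16 subtracted, 1 enzyme, Fbp1 at 1.19, was 2-fold higher in Activin+PD than in 2i, and 295 genes were in place of 193. With probe sets averaged, the dim probe set of Pdk1 lowered its difference between mEpiSCs and Activin+PD to 0.63, leaving 1 enzyme higher. With 16 added, Pdk4 was at -0.92 between mEpiSCs and 2i, no longer 2-fold apart. At 1.5-fold, 2 enzymes were higher and 2 lower in Activin+PD than in 2i, 4 in all, 3 were higher in mEpiSCs than in 2i, and 4 were higher in mEpiSCs than in Activin+PD, with 11 apart there. No paired analysis was possible because each group had 1 array. Leaving out a replicate was not possible either. Dim genes near background, such as the Pfkfb genes, are limited by signal.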
